A study of Sus scrofa with 8 samples.

Results

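The sirtuins, AMP-activated protein kinase (AMPK), mTOR and FOXO3 form the group of nutrient-sensing genes most often studied for their effects on lifespan, and their mRNA levels were compared between old and young pig livers. The members were named as SIRT1, SIRT2, SIRT3, SIRT5, SIRT6, SIRT7, PRKAA1, PRKAA2, MTOR and FOXO3, and were looked up by the gene symbol of their Ensembl pig identifier. Of these 10 genes, 7 matched an identifier among the 21607 of the mRNA table, of which 11654 carry a symbol. SIRT5, SIRT7 and PRKAA2 matched none and were not analysed here. Total RNA of the livers of 4 female Yana pigs, unrelated and healthy, was depleted of rRNA and sequenced. There were 2 young sows of 180 days and 2 old sows of 8 years, without further treatment, and each sow gave 1 library. The young sows had never farrowed and the old sows had been retired after years of litters, so age and parity cannot be told apart. All pigs went without food overnight before slaughter, so each library describes a fasted liver. With 2 libraries per age group, an exact two-sided permutation test of a single gene cannot go below p = 0.33.

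These genes link the energy state of a cell to growth and repair. Sirtuins are enzymes that remove acyl groups from proteins and consume NAD+ in doing so, so that their activity follows the NAD+ supply. AMPK is switched on when ATP runs low, and promotes fat oxidation and glucose uptake while holding back lipid and protein synthesis. mTOR works in the opposite direction, as a kinase that is active when amino acids and insulin are plentiful and that drives protein synthesis and suppresses autophagy. FOXO3 is a transcription factor that insulin keeps out of the nucleus, and in the fasted liver FOXO factors turn on genes of glucose output, autophagy and stress resistance. Most of this control acts on proteins rather than on mRNA levels, which are what was measured here.

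The levels are given as CPM, the reads of a gene times 1 step per library. They have no gene length in them, so they compare libraries for 1 gene and not genes with each other. The CPM of the listed mRNAs did not sum to the same total in every library. Their sum was lower in both old libraries than in both young libraries. Between 22482241 and 37555696 reads fell on the listed mRNAs of a library, and the old libraries were the shallower pair. The number of reads behind each value is given with it, and 95% intervals are exact Poisson intervals that cover counting error alone. The livers carried their defining hepatocyte mRNAs, since the 8 hepatocyte markers with an identifier summed to 47157 and 52750 CPM in young livers against 33045 and 39001 in old ones. Old replicate 1 stood apart from the other 3 libraries. Its 14 interferon-stimulated genes with an identifier summed to 1889 CPM, against 46.2 to 65.0 in the other libraries, and each of the 14 lay above both young livers. The macrophage markers were higher in both old livers, where 5 genes summed to 340 and 375 CPM against 232 and 254 in the young livers, and T and NK cell markers (6 genes) summed to 17.0 and 31.0 CPM in young, 29.8 and 26.7 in old livers. The sum of 3 endothelial markers was 29.97 and 26.8 CPM in young and 62.6 and 31.5 in old livers, and that of 6 stellate cell and fibroblast markers was 17.5 and 36.5 in young and 12.9 and 48.3 in old livers. In bulk tissue, fewer cells of a type cannot be told apart from less RNA per cell, and the part of these differences in the results below was not tested. The part of the lower mRNA sum of the old libraries in the marker sums, those of hepatocytes included, was not tested either.

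MTOR and FOXO3 were higher in both old livers than in both young livers, and SIRT2 was lower in both. For PRKAA1, SIRT1, SIRT3 and SIRT6, the age groups overlapped. No overlap was thus found for 2 higher members and 1 lower member of the 7, whereas 24.4% of the 16898 mRNAs tested were higher without overlap and 25% lower without overlap. These shares are near the members' own, so the counts do not set the members apart from other mRNAs. Without old replicate 1, 2 members were higher and 3 lower without overlap, against 34.7% and 35.5% of all mRNAs. By limma, none of the 7 members passed the call rule, which asks for both an adjusted p-value under 0.05 and a log2 fold change beyond 1 in size, and 0% of all mRNAs did. Before adjustment, 1 member (MTOR) and 15.7% of all mRNAs reached p under 0.05. On whole reads, the exact test of edgeR also called none of the members, against 3.16% of all mRNAs, and gave 1 member, FOXO3, an unadjusted p-value under 0.05 (13% of all mRNAs). The quasi-likelihood test of edgeR gave none by either rule (0% and 14.6% of all mRNAs). The median log2 fold change over the 7 members was -0.20, beside -0.02 over all mRNAs tested. All 7 members had a mean of at least 1 CPM, and over the 9798 mRNAs with such a mean the median was -0.15. The median of the members was thus near that of mRNAs above this level.

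**Figure D1:**
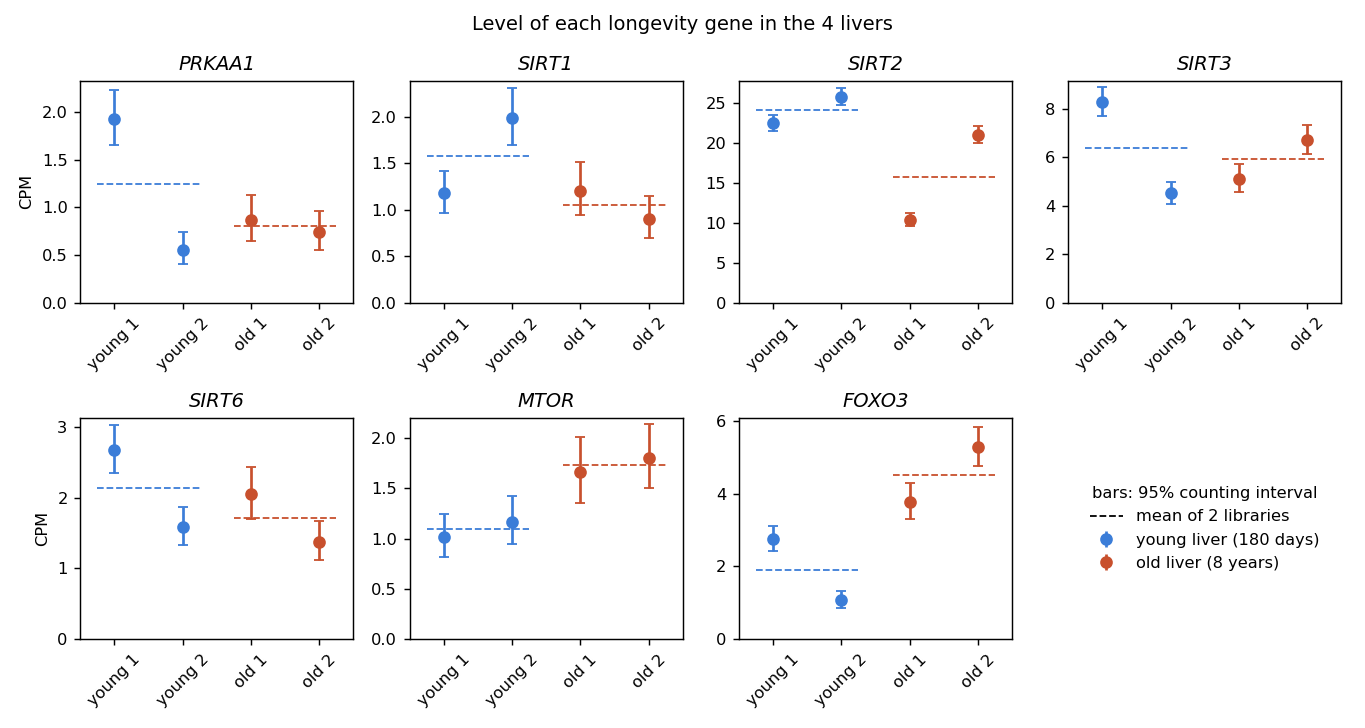
CPM of each of the 7 members in each of the 4 livers, with 95% Poisson counting intervals as bars and group means as dashed lines. MTOR and FOXO3 sit higher in both old livers, SIRT2 sits lower in both but mainly in old replicate 1, and the other 4 genes overlap between the ages.

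PRKAA1 encodes an alternative form of the catalytic subunit of AMPK, the subunit that transfers phosphate to the targets. It had 1.93 CPM in young replicate 1 and 0.555 in young replicate 2, from 177 and 48 reads, and 0.861 and 0.738 in old replicates 1 and 2, from 53 reads in each. Both old values thus lay between the young values. The young livers differed from each other by 3.47-fold, more than counting error allows, as their intervals ran from 1.65 to 2.23 and from 0.409 to 0.735 CPM. On log2(CPM + 1) the old livers differed from the young by -0.25 (standard error 0.37, adjusted p = 0.808, limma), and the sign rested on young replicate 1, without which the difference was 0.21.

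SIRT1 encodes a nuclear deacetylase that acts on PGC-1α, FOXO factors and histones. Its levels were 1.18 and 1.99 CPM in young livers, from 108 and 172 reads, and 1.202 and 0.905 CPM in old livers, from 74 and 65 reads. Young replicate 2 was the high library, and old replicate 1 was level with young replicate 1, whose counting interval of 0.965 to 1.42 CPM holds its value. The log2 difference was -0.32 (standard error 0.22, adjusted p = 0.585, limma), and leaving out any 1 library moved it between -0.54 and -0.09. The means, 1.58 ± 0.573 CPM in young and 1.05 ± 0.210 in old livers (SD, n = 2), differed by less than the SD of the young pair. HERC4 overlaps SIRT1 in the RefSeq annotation of Sscrofa11.1 and had no symbol in the table, so reads shared with it could not be checked.

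SIRT2 encodes a mainly cytoplasmic deacetylase that acts on tubulin and on metabolic enzymes. It stood at 22.5 and 25.8 CPM in young livers, with 2063 and 2231 reads, against 10.4 and 21.0 CPM in old livers, with 638 and 1508 reads. The groups did not overlap, but old replicate 2 was close to young replicate 1, and the old livers were 2.02-fold apart. The mean of the old livers was 0.650 of the young mean, and the log2 difference was -0.66 (standard error 0.39, adjusted p = 0.519, limma). Old replicate 1, the library with the high interferon-stimulated genes, carried most of it. Without that library the difference was -0.19, and without old replicate 2 it was -1.14. After TMM scaling, which sets libraries level by the bulk of their genes, the difference was -0.47 and no member was lower without overlap, SIRT2 included.

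SIRT3 encodes the main deacetylase of mitochondria, whose substrates include enzymes of fat oxidation and ketone synthesis. Its values were 8.30 and 4.51 CPM in young livers against 5.12 and 6.71 in old livers, with 762, 390, 315 and 482 reads in that order. Both old livers lay between the young ones. The log2 difference of -0.06 (standard error 0.34, adjusted p = 0.956, limma) turned to 0.12 after TMM scaling, so no direction can be given for this gene.

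SIRT6 encodes a chromatin-bound deacetylase of histone H3 that takes part in DNA repair and restrains glycolytic genes. Its values were 2.68 and 1.58 CPM in young livers and 2.05 and 1.38 in old livers, from 246, 137, 126 and 99 reads. The young and old libraries alternated in rank. The log2 difference was -0.20 (standard error 0.27, adjusted p = 0.782, limma). Without young replicate 1 it was 0.060.

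MTOR encodes the kinase at the centre of both mTOR complexes. It stood at 1.013 and 1.17 CPM in young livers, with 93 and 101 reads, and at 1.66 and 1.80 CPM in old livers, with 102 and 129 reads. The replicates of each age lay close together, with 1.09 ± 0.109 CPM in young and 1.73 ± 0.0983 CPM in old livers (SD, n = 2), and the old mean was 1.58 times the young mean. The counting intervals of neighbouring libraries still met, since that of young replicate 2 ran from 0.950 to 1.42 CPM and that of old replicate 1 from 1.35 to 2.01. On log2(CPM + 1) the difference was 0.38 (standard error 0.12, unadjusted p = 0.0421, adjusted p = 0.300, limma), and leaving out any 1 library kept it at 0.33 to 0.44. In the exact test of edgeR the log2 fold change was 0.86 with an unadjusted p of 0.217, so limma and this test fell on different sides of 0.05 before adjustment. In the same RefSeq annotation, ANGPTL7 overlaps the span of MTOR. ANGPTL7 is counted under its own identifier and had 0.740 and 7.12 CPM in young and 0.845 and 1.16 in old livers. Whether it shares reads with MTOR was not tested.

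FOXO3 showed the largest difference of the 7 members. Its levels were 2.74 and 1.07 CPM in young livers, from 252 and 93 reads, against 3.77 and 5.28 CPM in old livers, from 232 and 379 reads. Both old livers were above both young livers, and no counting interval of an old liver met that of a young liver, as the highest young interval ended at 3.10 CPM and the lowest old one began at 3.30. The old mean was 2.37 times the young mean, 4.52 ± 1.06 against 1.91 ± 1.18 CPM (SD, n = 2). The young livers differed by 2.55-fold, about as much as the age groups did. The log2 difference was 0.97 (standard error 0.38, unadjusted p = 0.0778, adjusted p = 0.371, limma), with a range of 0.55 to 1.40 when any 1 library was left out. It was 1.17 without old replicate 1, so it did not rest on the library with the high interferon-stimulated genes. The exact test of edgeR gave 1.46 (unadjusted p = 0.0493, adjusted p = 0.381).

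**Figure D2:**
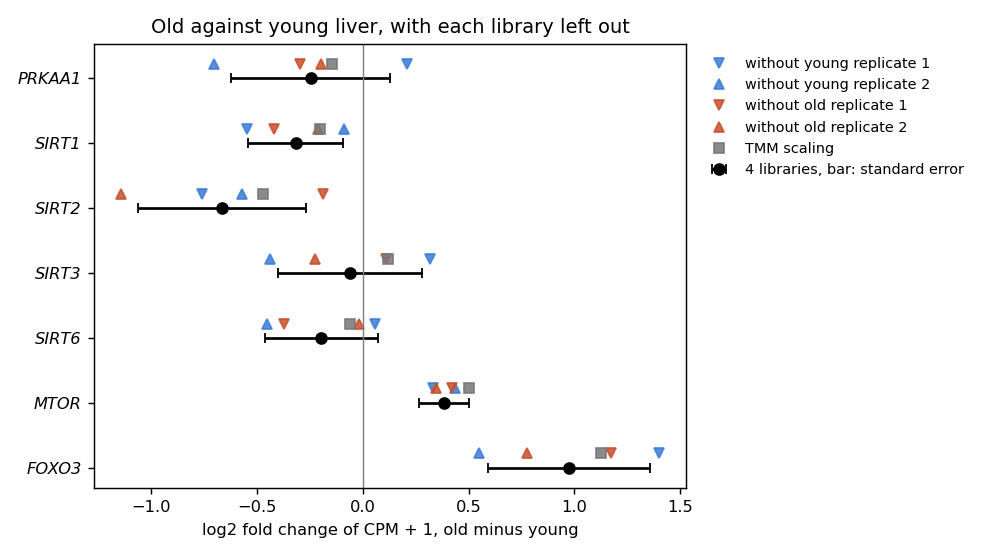
Log2 fold change of CPM + 1 between old and young livers for each member, with the standard error of the limma fit as a bar and, just above, the value with each library left out and after TMM scaling. MTOR and FOXO3 stay above 0 throughout, SIRT1 and SIRT2 stay below 0, and PRKAA1, SIRT3 and SIRT6 cross it.

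The split between higher and lower mRNAs depended on the scaling between libraries. At an unadjusted p-value under 0.05, limma had 1145 mRNAs higher and 1509 lower in old livers on the deposited CPM, and 1505 higher and 944 lower after TMM scaling. TMM scaling raised the median log2 difference of all mRNAs from -0.02 to 0.04, and the exact test, which scales in the same way and uses a smaller prior count, had a median of 0.12. Relative to this median, MTOR and FOXO3 were still higher. After TMM scaling 2 members, MTOR and FOXO3, were higher without overlap, where 29.4% of all mRNAs were, and their log2 differences were 0.50 and 1.13.

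Ratios of 2 members within a library do not depend on the scaling between libraries, and they were computed after the levels had been seen. The ratio of FOXO3 to PRKAA1 was 1.42 and 1.94 in young livers and 4.38 and 7.15 in old livers, 3.43 times the young mean. The ratio of FOXO3 to SIRT1 was 2.33 and 0.541 in young and 3.14 and 5.83 in old livers. In all, 5 of the 5 ratios of FOXO3 to PRKAA1 or a sirtuin were higher in both old livers. These 5 ratios share the FOXO3 values and are not independent of each other. FOXO3 was put over the others with its higher level in old livers already seen, and its partners overlapped or were lower there, so the count follows largely from the choice and adds no evidence to the levels. The ratio of MTOR to SIRT2 was 0.0451 and 0.0453 in young and 0.160 and 0.0856 in old livers, and the ratio of MTOR to SIRT1 was 0.861 and 0.587 in young and 1.38 and 1.98 in old livers. Of the 6 ratios of MTOR to the other members, 4 were higher in both old livers, and those to PRKAA1 and to FOXO3 overlapped. MTOR too was put over the others with its higher level in old livers already seen. Its ratios share the MTOR values, so this count adds no evidence to the levels either. MTOR to PRKAA1, the ratio of the growth kinase to the energy-sensing kinase, was 0.526 and 2.10 in young and 1.92 and 2.43 in old livers, so young replicate 2 lay between the old ones.

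**Figure D3:**
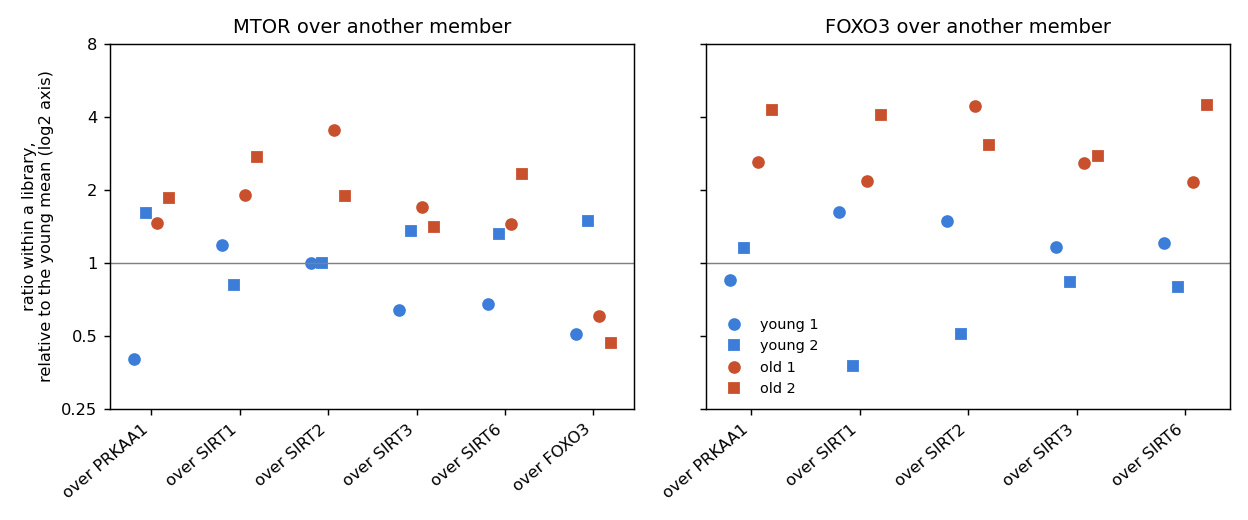
Ratio of MTOR (left) or FOXO3 (right) to each other member within a library, divided by the mean of the 2 young livers, on a log2 axis. The ratios of FOXO3 are higher in both old livers for all 5 partners, and those of MTOR for 4 of 6 partners. Both genes were put over the others after their higher levels in old livers had been seen.

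The genes around the members were taken from 9 lists of textbook pathway genes, 129 genes in all, of which 96 had an identifier. None of the 96 passed the call rule in limma. Before adjustment, p was under 0.05 for 7 higher and 11 lower genes, where 6.78% of all mRNAs were higher and 8.93% lower. Without overlap, 25 were higher and 25 lower, beside 24.4% and 25% of all mRNAs, so these counts are near the background. The median log2 fold change over the 96 genes was 0.04. After TMM scaling, 34 were higher and 18 lower without overlap, beside 29.4% and 18.8% of all mRNAs. Their median was then 0.18, beside 0.04 over all mRNAs. In each list, the genes named are those with the smallest p-values among genes without overlap and with a mean of at least 1 CPM, and genes outside this rule are marked as chosen after their values were seen. In limma, the smallest adjusted p-value of any gene was 0.213.

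Sirtuin activity depends on NAD+, and 14 of 18 genes of NAD synthesis and use had an identifier. In old livers 7 of them were higher and 7 lower on average, beside 47.1% and 52.9% of all mRNAs, with a median of 0.06. QPRT, an enzyme of the route from tryptophan breakdown to NAD, had 23.4 and 19.5 CPM in young and 55.6 and 42.1 in old livers (log2 difference 1.14, standard error 0.21, unadjusted p = 0.00997, adjusted p = 0.228, limma). For QPRT, the exact test of edgeR gave an unadjusted p of 0.00918 and an adjusted p of 0.147. NADSYN1, the last enzyme of that route, had 2.71 and 4.08 CPM in young and 4.14 and 6.07 in old livers, so old replicate 1 was barely above young replicate 2. NADK2, the mitochondrial NAD kinase, was at 14.4 and 13.0 CPM in young and 7.57 and 7.69 in old livers. PARP2, a DNA repair enzyme that consumes NAD+, was at 4.01 and 5.37 CPM in young and 1.71 and 2.10 in old livers. NAMPT, the rate-limiting enzyme of NAD salvage and chosen here after its values were seen, overlapped fully, with 13.4 and 7.13 CPM in young and 13.9 and 6.49 in old livers. SIRT4, a mitochondrial sirtuin outside the members and also chosen after its values were seen, had 1.71 and 3.09 CPM in young and 0.845 and 1.78 in old livers, so old replicate 2 was barely above young replicate 1.

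Of 11 substrates of the mitochondrial sirtuins, 9 had an identifier, and none had an unadjusted p-value under 0.05 in limma. CPS1, the entry enzyme of the urea cycle and a substrate of SIRT5, had 323 and 255 CPM in young livers and 61.6 and 169 in old livers, with a log2 difference of -1.48 (standard error 0.59) that was -0.76 without old replicate 1. ACADL, an acyl-CoA dehydrogenase deacetylated by SIRT3, had 16.1 and 16.2 CPM in young and 10.95 and 15.5 in old livers. SDHA, a subunit of respiratory complex II, was at 50.7 and 54.0 CPM in young and 61.5 and 77.2 in old livers. ACSS1, the mitochondrial acetyl-CoA synthetase, was at 1.12 and 0.728 CPM in young and 4.36 and 1.89 in old livers, which differed from each other by more than the young ones did. The pattern of CPS1 and ACADL, lowest in old replicate 1, was also that of SIRT2.

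AMPK is a trimer, and 12 of 16 genes of its other subunits and upstream kinases had an identifier. In old livers 8 were lower and 4 higher on average, where 52.9% of all mRNAs were lower, and the median was -0.14. Of the 12, 5 were lower without overlap, beside 25% of all mRNAs. PRKAG1, a regulatory subunit that binds AMP, had 10.9 and 12.7 CPM in young and 6.48 and 7.48 in old livers (log2 difference -0.68, standard error 0.15, unadjusted p = 0.0169, adjusted p = 0.247, limma). PRKAB2, a scaffold subunit, had 3.66 and 4.09 CPM in young and 1.33 and 2.30 in old livers (log2 difference -0.81, standard error 0.23, unadjusted p = 0.0331, limma). In the exact test of edgeR, PRKAG1 and PRKAB2 had unadjusted p-values of 0.288 and 0.166. The remaining genes that were lower without overlap, chosen after their values were seen, were PRKAB1, CAB39 and FNIP1, which encode a scaffold subunit, a partner of the upstream kinase LKB1 and a binding partner of AMPK. After TMM scaling, 3 genes of the list were lower without overlap, beside 18.8% of all mRNAs, and none had an unadjusted p-value under 0.05. STK11, the gene of LKB1 itself and chosen after its values were seen, overlapped with 35.9 and 27.4 CPM in young and 40.9 and 29.7 in old livers.

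All 7 AMPK substrates with an identifier, of 9 listed, were higher on average in old livers, where 47.1% of all mRNAs were, and 6 were so without overlap, beside 24.4% of all mRNAs. Their median log2 difference was 0.34, none had an unadjusted p-value under 0.05, and all 7 were also higher on average without old replicate 1. TBC1D1, CRTC2, TSC2 and RPTOR had means of only 0.960, 0.832, 0.703 and 0.427 CPM. The direction of mRNAs depended on their level, as the median of all was -0.02 but -0.15 for those with a mean of at least 1 CPM. Shares over mRNAs of like level were not computed, so the shares given here are not a matched background. ULK1, the kinase that starts autophagy and which AMPK activates and mTOR inhibits, had 0.501 and 1.21 CPM in young and 1.24 and 3.45 in old livers. The overlap was seen in ACACA, the acetyl-CoA carboxylase of fatty acid synthesis and chosen after its values were seen, with 2.01 and 2.67 CPM in young and 1.98 and 4.02 in old livers. ULK1, RPTOR and TSC2 also stand in the lists of mTOR genes, so these lists are not separate evidence.

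Of the partners of mTOR in its complexes, 10 of 11 had an identifier, 6 of them higher and 4 lower on average, with a median of 0.09. Of all mRNAs, 47.1% were higher and 52.9% lower on average. TELO2, part of the chaperone that assembles mTOR, had 0.403 and 0.843 CPM in young and 1.495 and 1.59 in old livers (log2 difference 0.66, standard error 0.19, unadjusted p = 0.0346, limma). Its unadjusted p in the exact test of edgeR was 0.0835. AKT1S1, an inhibitory subunit of mTOR complex 1 also known as PRAS40, had 0.904 and 1.26 CPM in young and 1.32 and 2.09 in old livers. RPTOR, the subunit that defines mTOR complex 1 and chosen after its values were seen, had 0.305 and 0.208 CPM in young and 0.471 and 0.724 in old livers. RICTOR and MAPKAP1, the defining subunits of mTOR complex 2, were lower in both old livers. RICTOR had 1.21 and 1.42 CPM in young and 1.10 and 0.988 in old livers, and MAPKAP1 had 16.9 and 13.9 in young and 5.26 and 11.9 in old livers. The log2 difference of RICTOR was -0.18 (standard error 0.12, limma) and -0.07 after TMM scaling. The difference of MAPKAP1 was -0.86 with all libraries and -0.34 without old replicate 1. PRR5 and PRR5L, further subunits of mTOR complex 2, were chosen after their values were seen. PRR5 was higher in both old livers, from 1 and 0 reads in young and 20 and 12 in old livers. PRR5L overlapped, with 0.806 and 0.497 CPM in young and 0.276 and 0.543 in old livers. The listed subunits of this complex thus did not share a direction.

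Upstream of mTOR complex 1, 19 of 26 genes had an identifier, with 9 higher and 10 lower on average and a median of -0.25. Of all mRNAs, 47.1% were higher and 52.9% lower on average. Without overlap, 4 were higher and 8 lower, beside 24.4% and 25% of all mRNAs. Before adjustment, limma gave p under 0.05 for 2 higher and 5 lower genes, beside 6.78% and 8.93% of all mRNAs. After TMM scaling these were 2 and 2 genes, and 5 were higher and 7 lower without overlap, beside 29.4% and 18.8% of all mRNAs. LAMTOR1, the lysosomal anchor of the Ragulator complex on which amino acids activate mTOR, had the smallest p-value of all pathway genes, with 2.78 and 2.96 CPM in young and 8.45 and 9.31 in old livers (log2 difference 1.35, standard error 0.12, unadjusted p = 0.00102, adjusted p = 0.213, limma). The exact test of edgeR gave LAMTOR1 a log2 fold change of 1.83 with an adjusted p-value of 0.0382. Its partner in Ragulator, LAMTOR3, went the other way, with 7.24 and 8.73 CPM in young and 4.88 and 3.61 in old livers (log2 difference -0.78, standard error 0.20). WDR24, a subunit of the GATOR2 complex that relieves the inhibition of mTOR, was at 0.599 and 0.531 CPM in young and 1.72 and 1.23 in old livers. SEC13, a coat protein that is also a GATOR2 subunit, was at 21.3 and 25.3 CPM in young and 12.2 and 11.5 in old livers. MIOS and SEH1L, further GATOR2 subunits chosen after their values were seen, were lower too, with 2.94 and 2.25 CPM against 1.46 and 1.59 for MIOS, and 1.21 and 1.18 against 0.227 and 0.432 for SEH1L. The subunits of a single complex thus differed in direction, in Ragulator as in GATOR2.

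Of the targets of mTOR complex 1, 12 of 15 had an identifier, 9 of them higher and 3 lower on average, with a median of 0.20. Of all mRNAs, 47.1% were higher and 52.9% lower on average. Without overlap, 3 were higher and 3 lower, beside 24.4% and 25% of all mRNAs. After TMM scaling, 7 were higher and 2 lower without overlap, beside 29.4% and 18.8% of all mRNAs, and the median was 0.30. RPS6KB1, the S6 kinase that carries the growth signal to the ribosome, had 2.62 and 2.65 CPM in young and 1.92 and 1.66 in old livers (log2 difference -0.38, standard error 0.12, unadjusted p = 0.0428, limma). PDCD4, a translation inhibitor that S6 kinase marks for decay, had 10.4 and 13.5 CPM in young and 6.71 and 8.83 in old livers. MAF1, a repressor of RNA polymerase III, had 11.9 and 9.13 CPM in young and 13.6 and 16.6 in old livers. TFEB, the transcription factor of lysosomal genes that mTOR holds in the cytoplasm, was chosen after its values were seen and had 0.544 and 0.647 CPM in young and 1.35 and 1.18 in old livers.

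The insulin pathway controls FOXO3 through AKT and SGK kinases, and 10 of 15 of its genes had an identifier. SGK1, a kinase that phosphorylates FOXO3, had 13.98 and 8.43 CPM in young and 21.5 and 29.0 in old livers (log2 difference 1.13, standard error 0.33, unadjusted p = 0.0353, limma). IRS1, an adaptor of the insulin receptor, had 0.915 and 1.502 CPM in young and 2.34 and 4.07 in old livers (log2 difference 0.91, standard error 0.30, unadjusted p = 0.049995, limma). In the exact test of edgeR, SGK1 and IRS1 had unadjusted p-values of 0.0169 and 0.0282. PIK3CA, the catalytic subunit of the lipid kinase downstream of the receptor, had 2.17 and 1.57 CPM in young and 0.796 and 0.794 in old livers. The relatives of FOXO3 did not share its pattern and were chosen here after their values were seen. FOXO1, the main FOXO factor of hepatic glucose output, had 0.599 and 1.84 CPM in young and 0.959 and 1.46 in old livers, and FOXO4 had 6.11 and 8.64 in young and 9.002 and 7.88 in old livers.

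Only 6 of 14 listed FOXO target genes had an identifier, and none had an unadjusted p-value under 0.05 in limma. On average 3 were higher and 3 lower, beside 47.1% and 52.9% of all mRNAs. CITED2, a transcriptional regulator, had 11.7 and 18.6 CPM in young and 19.9 and 27.7 in old livers, and BCL6, a transcriptional repressor, had 1.49 and 1.54 in young and 3.49 and 1.82 in old livers. The classical hepatic targets, chosen after their values were seen, differed more between sows of 1 age than between ages. IGFBP1, a secreted binding protein for insulin-like growth factors, had 2.18 and 28.6 CPM in young and 5.70 and 59.1 in old livers, and PCK1, a key enzyme of gluconeogenesis, had 83.9 and 246 in young and 34.6 and 210 in old livers. Both were higher in replicate 2 of each age, while FOXO3 was higher in replicate 1 of the young and in replicate 2 of the old livers.

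**Figure D4:**
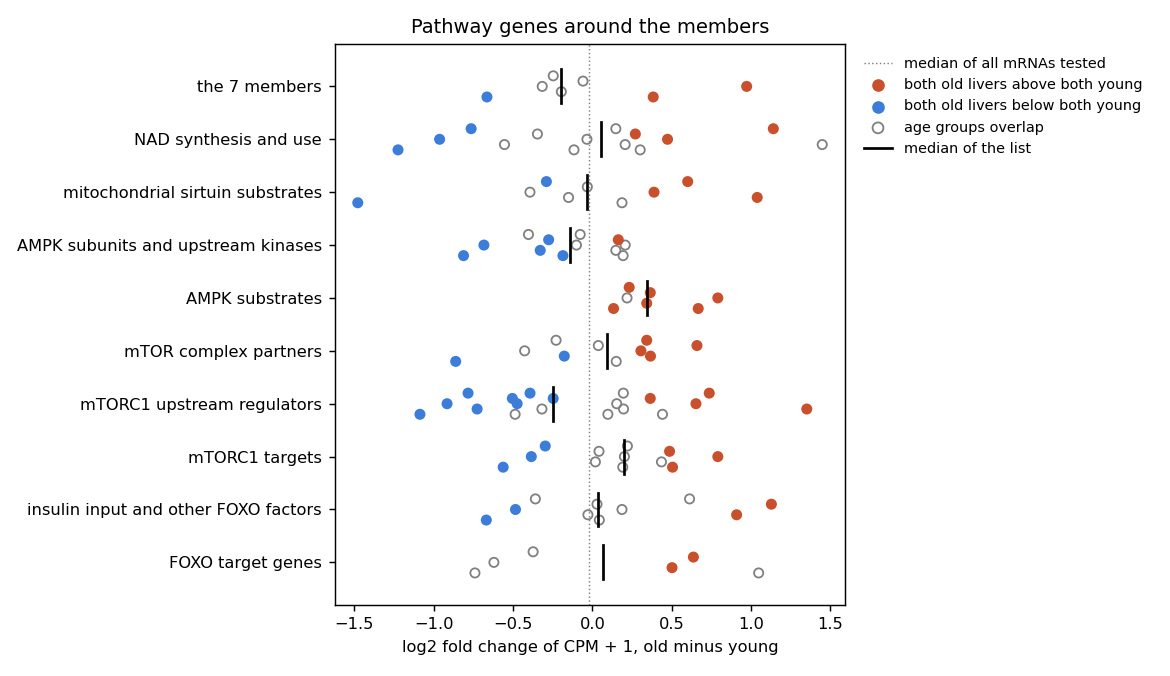
Log2 fold change of CPM + 1 between old and young livers for the 7 members and for the pathway genes with an identifier, 1 row per list, with the list median as a black bar and the median of all mRNAs tested (-0.02) as a dotted line. Filled points mark genes whose age groups do not overlap, and the median of AMPK substrates (0.34) and that of the mTORC1 upstream regulators (-0.25) lie farthest from the dotted line.

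Small RNA libraries of the same 4 livers gave the levels of miRNAs that are known to repress the members. The values are a signal normalized by the authors to a library total that is not stated. All 10 listed miRNAs were found, under 17 names when both arms are counted, and none passed the call rule in limma, where 0% of the 867 miRNAs tested did. Before adjustment, 2 names and 11.9% of all miRNAs had a p-value under 0.05, and these 2 were the rarely kept arms miR-33b-3p and ssc-miR-155-3p, both lower in old livers. For miR-33b-3p these were 9 and 3 reads in the young and 0 in both old livers, and for ssc-miR-155-3p 14, 7, 2 and 2 reads. Without overlap, 5 names were higher (28.3% of all miRNAs) and 5 lower (16.1%) in old livers.

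Among regulators of SIRT1, ssc-miR-34a had a signal of 1590 and 1094 in young and 2039 and 819 in old livers, so the old livers lay on both sides of the young ones. The others were ssc-miR-217, with 26.7 and 15.4 in young and 38.7 and 38.1 in old livers, and ssc-miR-132, a regulator of FOXO3 as well, with 33.4 and 34.6 in young and 100.1 and 29.7 in old livers. For PRKAA1 and SIRT6, miR-33a-5p had only 13, 12, 4 and 26 reads and miR-33b-5p 33, 20, 15 and 32 reads in young replicates 1 and 2 and old replicates 1 and 2. Of the miRNAs that target MTOR, ssc-miR-99b had a signal of 1309 and 1012 in young and 2021 and 3064 in old livers (log2 difference 1.11, standard error 0.60, adjusted p = 0.517, limma). The signal of ssc-miR-100 was 17714 and 14394 in young and 19919 and 29277 in old livers, and that of the far more abundant ssc-miR-99a was 275369 and 170907 in young and 181587 and 241991 in old livers. Both ssc-miR-99b and ssc-miR-100 were thus higher in old livers, as was their target MTOR. Of those that target FOXO3, ssc-miR-182 had 193 and 204 in young and 377 and 435 in old livers (log2 difference 1.03, standard error 0.58, adjusted p = 0.552, limma), higher in old livers as FOXO3 was, and ssc-miR-155-5p overlapped, with 8084 and 2708 in young and 4409 and 2960 in old livers.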

How the data were processed

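RNA-seq and small RNA-seq libraries of 2 young and 2 old livers were grouped by age as the labels give it. The authors aligned clean RNA-seq reads to Sscrofa10.2 with TopHat2 2.0.14, assembled transcripts with StringTie 1.2.3 and credit the values, which they name TPM, to Salmon 0.6.0. As deposited, 100% of the mRNA values above 0 were whole reads times 1 step per library (tolerance 0.0006), so they are CPM values with no gene length. The miRNA signal was made by the authors with mirdeep2. At least 99.754% of the values above 0 were whole multiples of 1 step per library, which are called reads here. These multiples summed to between 11661943 and 14139461 in a library. The paper reports fewer clean small RNA reads than that for every library. The multiples thus cannot all be distinct sequenced reads, and the cause was not tested.

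Python 3.11.15, numpy 2.4.6, pandas 2.3.3, scipy 1.17.1, matplotlib 3.10.9, R 4.3.3, limma 3.58.1 and edgeR 4.0.16 were used. limma was fitted on log2(value + 1) over the 16898 mRNAs (867 miRNAs) that were above 0 in 2 or more libraries, and p-values were adjusted by Benjamini-Hochberg over all of them. Such fold changes understate those of low genes. A gene was called where its adjusted p-value was under 0.05 and its log2 fold change exceeded 1 in size. The exact test of edgeR, used in the study, and its quasi-likelihood test were run on whole reads as alternatives. For miRNAs both edgeR tests took the whole multiples as reads, so their p-values may rest on counts that are too high. Scripts were tested on simulated counts.

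Besides the members and miRNAs, the genes named per list and direction were the 2 with the smallest p-value among those without overlap and with a mean of at least 1. Some genes that this rule names are not reported here. Members and lists were chosen with earlier results of these data known. Nothing says whether counting used strand. The ratio of PRKAA1 to PRKAA2 could not be computed, and lncRNAs and circRNAs were not used here.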

Additional observations from a re-analysis of the deposited data

How the results depend on the processing

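With 2 livers per age and about 48 to 379 reads behind all members but SIRT2 and SIRT3, only differences well above the spread between sows can be called. No member passed the thresholds under any alternative. Over all mRNAs the count rose from 0 to 2 when a mean of at least 1 was required and to 534 in the exact test of edgeR (457 higher, 77 lower), and for miRNAs from 0 to 26 in that test and to 7 in limma with an intensity trend, both chosen for miRNAs after seeing the data. LAMTOR1 passed in the exact test alone. Members at an unadjusted p-value under 0.05 numbered 1 in limma (15.7% of all mRNAs) and 2 after TMM or median-of-ratios scaling. They numbered 0 with a pseudocount of 0.1, a mean of at least 1, an intensity trend or the quasi-likelihood test (14.6%). Of the 16898 mRNAs, 1505 were higher and 944 lower at this p-value after TMM scaling, and 1452 and 1011 after median-of-ratios scaling. They were 1456 and 982 with the pseudocount of 0.1, and 1394 and 1021 with the trend. Of the 9798 mRNAs with a mean of at least 1, 634 were higher and 884 lower. The members without overlap, 3 of 7, were 2 after either scaling (29.4% of all mRNAs higher and 18.8% lower after TMM scaling). They were 3 to 6 with 1 library left out, where fewer values make overlap rarer. Without old replicate 1, 2 were higher and 3 lower, beside 34.7% and 35.5% of all mRNAs. For the other libraries left out and for median-of-ratios scaling, shares over all mRNAs were not computed. Those counts thus cannot be set against other mRNAs.

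Direction changed for SIRT3, with log2 differences of 0.12 after TMM scaling, 0.094 after median-of-ratios scaling, 0.10 in both edgeR tests and -0.44 to 0.32 with 1 library left out. With 1 library left out it also changed for PRKAA1 (-0.70 to 0.21) and SIRT6 (-0.45 to 0.060). Of the miRNAs, it changed for ssc-miR-34a (-0.69 to 0.63), miR-33a-5p (-1.45 to 1.07, and 0.12 in both edgeR tests), miR-33b-5p (-0.76 to 0.39), ssc-miR-99a (-0.39 to 0.29), ssc-miR-155-5p (-1.16 to 0.42), miR-99b-3p (-0.30 to 0.14) and ssc-miR-132 (-0.19 to 1.53). The causes were not tested.

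The replicate numbers do not pair the sows, which are unrelated, and the deviations of same-numbered libraries correlated at 0.09 across mRNAs. With the replicate number as a block, 0 members and 0 mRNAs passed the thresholds and 0 members, in place of 1, had an unadjusted p-value under 0.05. Of the 16898 mRNAs, 1065 were higher and 1360 lower at this p-value in that fit.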
